A study of Mus musculus with 18 samples.

Results

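Nascent RNA was compared between mouse embryonic stem cells in which ERK signalling had been switched on for 8 h and the same cells before activation, with the Mediator subunit Med24 present in both. The comparison used 6 of the 18 libraries in the study, 3 at 0 h and 3 at 8 h, chosen by their labels alone, and all 25897 genes of the count table, of which 14128 held enough counts to be tested. The cells were E14tg2a embryonic stem cells of 129SV background. Their own Med24 was knocked out, and a TET-regulated FLAG-Med24 cDNA took its place, kept on with 500 nM doxycycline (labelled WT, called rescued here). They also carried cRAF-ErT2, a RAF kinase under the control of an estrogen receptor domain that responds to 4-hydroxytamoxifen (4OHT). All cells had grown in serum with LIF and 2 µM of the GSK3 inhibitor Chir99021, and had then spent 24 h in serum and LIF with 250 nM of the FGF receptor inhibitor PD173074. The 0 h libraries came from cells left without 4OHT and the 8 h libraries from cells given 250 nM 4OHT for 8 h, a duration given by the sample titles and treatment labels, since the protocol text names 2 h only. Each group held a library of clone A, of clone B and of clone C, so the spread within a group is the spread between clones. The 3 rescued libraries at 2 h of 4OHT and the 6 knockout libraries at 0 h and 8 h, which were grown without doxycycline, served for the further comparisons. No untreated 8 h library was analysed, so ERK activity, 4OHT itself and the hours in culture cannot be told apart.

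RAF phosphorylates MEK, and MEK phosphorylates ERK, a kinase that enters the nucleus and acts on transcription factors of the ETS and AP-1 families and on their cofactors. Immediate early genes answer first and need no new protein. Many genes induced by ERK encode phosphatases and adaptor proteins that restrain the pathway again. In embryonic stem cells LIF and STAT3 sustain the naive state, whereas FGF acting through ERK opposes it and makes cells competent for differentiation. RNA labelled with 5 mM ethynyl uridine for 15 min reports transcription at the time of sampling more than the stored message.

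The 6 libraries held 6725228 to 14541145 counts, and 8 h clone A was the deepest. A count of 0 in a library still allowed 3 counts, or 0.196 to 0.418 CPM, the unit of library-scaled counts used throughout. Med24 stood at 528, 602 and 515 CPM at 0 h, 1520, 1775 and 1610 CPM at 2 h and 405, 407 and 399.5 CPM at 8 h in rescued cells. In the 6 knockout libraries used here it stood at 33.96 to 42.8 CPM. The groups of rescued libraries did not overlap, and Med24 was lower at 8 h than at 0 h by a log2 fold change of -0.44 ± 0.061. At 2 h it lay far above both other times. Whether its level had a part in the changes from 2 h to 8 h was not tested. The 6 defining markers of embryonic stem cells were detected in every library and summed to between 1160 and 1290 CPM at 0 h and between 1300 and 1340 CPM at 8 h. A set of 13 abundant genes took 17.7% to 24% of the counts in these 6 libraries, but 34.2%, 36.4% and 43.9% in knockout 2 h clone A, 8 h clone B and 8 h clone C. Fits without these genes and without these libraries are given with the results they touch.

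After 8 h, 8751 genes (61.9% of those tested) differed from 0 h at an adjusted p below 0.05 in edgeR's quasi-likelihood test. Of all tested genes 30.7% were higher and 31.2% were lower, and the median log2 fold change over all of them was -0.01. These shares are the background for each count of list members at 8 h against 0 h. With library size alone in place of TMM scaling, 2679 genes were higher and 3890 lower, so the share of higher calls dropped from 49.6% to 40.8%. Without the 13 abundant genes, an alternative chosen after seeing the data, 4317 were higher and 4440 lower. At a fold of at least 2, 1164 genes were higher (8.24%) and 1345 lower (9.52%). The 0 h and 8 h groups did not overlap in 9400 genes (66.5%). Rises reached further than falls: 213 genes rose and 124 fell at least 8-fold, and 40 rose and 17 fell at least 32-fold. Many of these genes started from or reached a very low level. Among the genes that rose at least 2-fold, 24.7% lay below 1 CPM at 0 h, against 4.28% of all tested genes, and among those that fell, 31.4% lay below 1 CPM at 8 h, against 5.64%. In the text "rose" and "fell" are used only for genes past that adjusted p, and log2 fold changes are given with their standard error (n = 3 libraries per group).

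**Figure D1:**
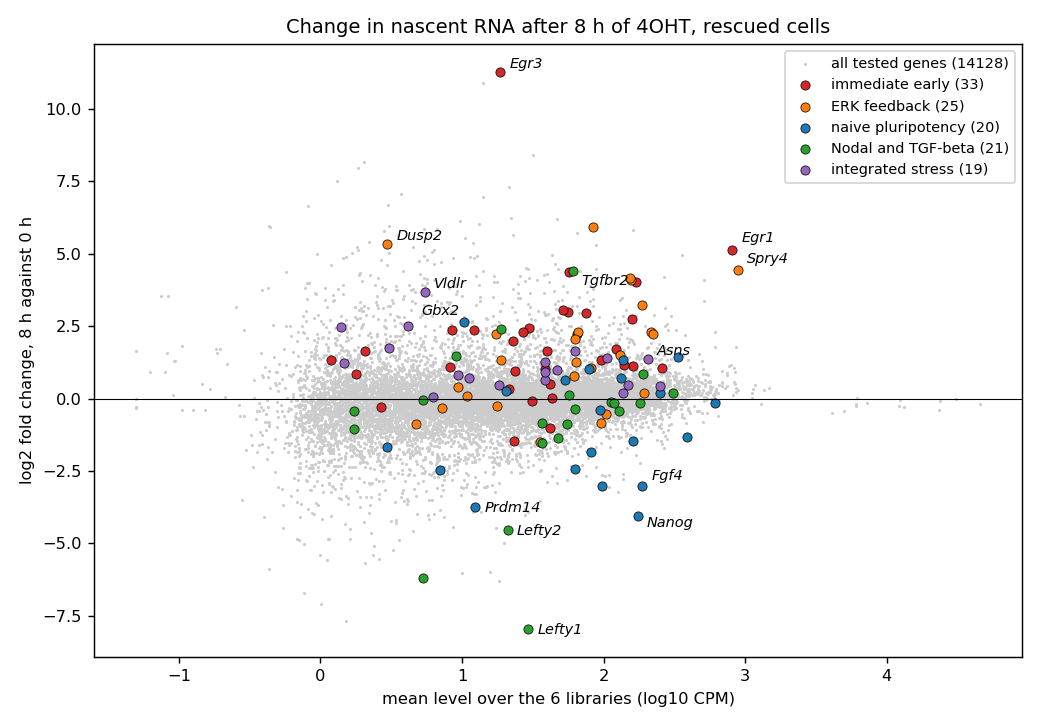
Log2 fold change at 8 h against 0 h in rescued cells (y axis) against the mean level over the 6 libraries in CPM (x axis, log scale), a point for each of the 14128 tested genes, with members of 5 gene lists coloured. Immediate early and feedback genes lie mostly above 0 over a wide range of levels, and naive pluripotency genes lie on both sides, with Nanog among the lowest.

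Most tested immediate early genes were still transcribed above their starting level after 8 h of signalling. Of 33 tested members, 28 were higher and 2 lower, with a median log2 fold change of 1.65 against -0.01 over all genes. Over all genes these calls made up 30.7% and 31.2%. The EGR factors, zinc-finger proteins that bind GC-rich sites, and their NAB corepressors were higher in all 5 tested members (median 2.45), and the AP-1 factors of the FOS and JUN families in 7 of 8 (median 1.85). Egr3, without counts at 0 h, may have passed the count filter through the libraries in which it is high. Its call within these counts is therefore no support for a direction. Egr1 (GRCm38 chromosome 18, 34859823 to 34864984) stood at 45.1, 47.2 and 41.5 CPM at 0 h, 3265, 3825 and 3485 CPM at 2 h and 1534, 1685 and 1508 CPM at 8 h. Its groups were far apart, with a log2 fold change of 5.14 ± 0.11 from 0 h to 8 h and of -1.16 ± 0.092 from 2 h to 8 h. Egr3 was at 0 counts in every 0 h library and stood at 182, 199 and 202 CPM at 2 h and 32.9, 36.7 and 42.2 CPM at 8 h, at least 285-fold above the 3 counts that a 0 over the group allows. Nab2, whose product binds and represses EGR factors, moved the same way, with 9.14, 7.796 and 10.1 CPM at 0 h, 309, 366 and 366 CPM at 2 h and 41.7, 44.02 and 48.6 CPM at 8 h. Thus the EGR genes and the corepressor gene were all lower at 8 h than at 2 h and all higher than at 0 h.

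The AP-1 genes parted at 8 h. Fos stood at 4.005, 4.32 and 3.36 CPM at 0 h, 144, 163 and 151 CPM at 2 h and 18.3, 20.8 and 22.3 CPM at 8 h, a log2 fold change of 2.38 ± 0.16 over 8 h and of -2.92 ± 0.086 from 2 h on. Fosl1, which encodes the FOS relative FRA1, stood at 13.8, 13.1 and 11.4 CPM at 0 h, 84.8, 99.2 and 94.9 CPM at 2 h and 103, 98.8 and 97.2 CPM at 8 h, and its 8 h and 2 h levels differed by 0.10 ± 0.067 on the log2 scale (adjusted p = 0.179). Fosl2 (FRA2) rose by 4.35 ± 0.12 and Junb by 2.75 ± 0.066. Jund was the exception, a JUN gene with 50.7, 62.8 and 53.8 CPM at 0 h and 26.1, 27.96 and 28.3 CPM at 8 h, and fell by 1.03 ± 0.17 with no overlap between the groups. Jun rose by 0.97 ± 0.10, from 15.3, 17.96 and 15.1 CPM to 31.7, 32.6 and 29.7 CPM.

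Among the other immediate early genes, Arc, which encodes a capsid-like synaptic protein, stood at 17.9, 21.9 and 19.09 CPM at 0 h, 1257, 1559 and 1399 CPM at 2 h and 311, 329.8 and 314 CPM at 8 h. Myc, which encodes a growth-promoting transcription factor, went on rising: it stood at 10.6, 11.4 and 11.4 CPM at 0 h, 40.4, 37.7 and 43.1 CPM at 2 h and 92.3, 93.1 and 91.1 CPM at 8 h, a log2 fold change of 3.04 ± 0.10 over 8 h and of 1.19 ± 0.077 after 2 h. Trib1, a pseudokinase gene, did likewise with 17.4, 18.1 and 16.4 CPM at 0 h, 64.99, 75.1 and 70.7 CPM at 2 h and 131, 134 and 136 CPM at 8 h. Btg2, an antiproliferative gene, fell by 1.45 ± 0.12, from 37.8, 35.6 and 29.8 CPM to 13.1, 11.5 and 12.7 CPM. Over the whole list, 7 members were higher and 21 lower at 8 h than at 2 h (median -0.62), beside 30.7% higher and 30.1% lower among all genes in that comparison. The list thus held genes that had passed a peak by 8 h together with a few that were still climbing.

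Serum response factor binds the CArG box, a motif of many immediate early promoters. Of the 31 RefSeq promoters (250 bases before the start) matched to 24 of the 33 tested immediate early genes, 6 held a CArG box on either strand (19.4%), against 1.47% of all 32851 promoters in the table. The 6 belong to 3 genes. A pair is printed here with the feedback gene Dusp5, because these carry the boxes (capitals) close to the start and yet had different levels at 8 h. The coordinates are of GRCm38.p6: Zfp36 chr7:28379237-28379316, minus strand; Srf chr17:46556195-46556274, minus strand; Dusp5 chr19:53529033-53529112, plus strand.
Zfp36: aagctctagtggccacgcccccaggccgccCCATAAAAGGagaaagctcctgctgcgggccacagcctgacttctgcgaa
Srf: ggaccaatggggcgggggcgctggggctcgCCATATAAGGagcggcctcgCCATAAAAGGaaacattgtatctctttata
Dusp5: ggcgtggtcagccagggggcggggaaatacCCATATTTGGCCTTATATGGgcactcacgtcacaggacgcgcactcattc
Zfp36, which encodes an RNA-binding protein that shortens the life of cytokine messages, stood at 18.02, 21.4 and 18.5 CPM at 0 h, 86.5, 99.2 and 87.2 CPM at 2 h and 66.7, 58.2 and 55.4 CPM at 8 h and rose by 1.65 ± 0.10 over 8 h. Srf, the gene of the factor itself, stood at 34.5, 29.6 and 33.4 CPM at 0 h, 40.7, 47.9 and 51.5 CPM at 2 h and 31.6, 29.98 and 29.1 CPM at 8 h. Its 0 h and 8 h groups overlapped, its log2 fold change was -0.10 ± 0.10 (edgeR adjusted p = 0.364), and its log2 fold change from 2 h to 8 h was -0.62. Dusp5, a nuclear phosphatase that inactivates ERK, stood at 18.4, 16.1 and 14.7 CPM at 0 h, 336, 338 and 346 CPM at 2 h and 295, 282 and 302 CPM at 8 h and rose by 4.16 ± 0.074. A match in these letters is a description and no test of binding.

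Of 25 tested members, 18 were higher and 4 lower among the ERK feedback genes (median 1.32), beside 30.7% and 31.2% of all genes. Dusp2, with 3 counts over the 0 h group, may have passed the count filter through the libraries in which it is high. Its call is therefore no support for a direction. All 6 tested Sprouty and Spred genes rose, which encode adaptors that block signalling between receptor and RAF (median 2.22). Spry4 stood at 87.9, 73.9 and 74.2 CPM at 0 h, 1518, 1561 and 1532 CPM at 2 h and 1669, 1759 and 1704 CPM at 8 h, a log2 fold change of 4.44 ± 0.069, and Spry2 rose by 2.3 ± 0.056 and Spred1 by 2.22 ± 0.058. These genes did not decline after 2 h: 5 of the 6 were higher at 8 h than at 2 h and none lower. The dual-specificity phosphatases, which remove phosphate from MAP kinases, were divided, with 6 of 11 higher and 2 lower (median 0.39). Dusp4, a nuclear phosphatase gene, stood at 19.02, 15.2 and 17.4 CPM at 0 h, 173, 181 and 163 CPM at 2 h and 302, 306 and 272 CPM at 8 h, and Dusp6, a cytoplasmic one, at 36.7, 39.95 and 29.9 CPM at 0 h, 156, 145 and 155 CPM at 2 h and 335, 332 and 339.9 CPM at 8 h. They rose by 4.09 ± 0.071 and 3.25 ± 0.065. Both stood higher at 8 h than at 2 h in every clone.

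A further pair of phosphatase genes peaked at 2 h and lay near or below its start at 8 h. Dusp14 stood at 8.13, 8.49 and 7.57 CPM at 0 h, 95.8, 96.6 and 92.8 CPM at 2 h and 10.4, 8.47 and 12.8 CPM at 8 h, so that its 0 h and 8 h groups overlapped although the small difference of 0.39 ± 0.14 passed the test (adjusted p = 0.0141). Dusp16, which acts mainly on JNK and p38, stood at 117, 128 and 122 CPM at 0 h, 386, 388 and 400.4 CPM at 2 h and 78.5, 87.8 and 87.5 CPM at 8 h and fell below its starting level, with a log2 fold change of -0.54. Dusp2 had 3 counts over the 0 h group and was 45.3-fold higher at 8 h (95% exact counting interval 15.3 to 222, covering counting error only). Phlda1, an ERK-responsive pleckstrin-homology gene, stood at 3.63, 1.53 and 2.76 CPM at 0 h, 208, 206 and 211 CPM at 2 h and 161, 165 and 169 CPM at 8 h (log2 fold change 5.94 ± 0.11). Lrig1 and Lrig3, which encode membrane proteins that promote the loss of receptors, had log2 fold changes of -0.85 ± 0.064 and -1.49 ± 0.086. Feedback genes therefore differed from each other at 8 h far beyond the spread between clones.

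ETS factors include direct ERK substrates. Their PEA3 group rose in 3 of 3 members, Etv4 by 3.89 ± 0.086, Etv1 by 1.5 ± 0.089 and Etv5 by 0.53 ± 0.052. Etv4 stood at 10.01, 8.91 and 11.4 CPM at 0 h and 158, 143 and 151 CPM at 8 h. Of the other 17 ETS genes tested 4 were higher and 8 lower (median -0.55), among them Spic at -2.88 ± 0.37 and the epithelial factor gene Elf3 at -1.95 ± 0.14. Erf, an ETS repressor that ERK exports from the nucleus, fell by 0.75 ± 0.068. Of the 22 tested members, 8 were higher and 3 lower in the RAF and ERK cascade itself, a share of higher members (8 of 22) near the background. Shc1, an adaptor between receptors and RAS, stood at 44.2, 41.2 and 42.3 CPM at 0 h and 105, 108 and 105 CPM at 8 h, and Ksr1, a scaffold of RAF and MEK, fell by 0.97 ± 0.092. With library size alone 4 rather than 8 cascade genes were higher.

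**Figure D2:**
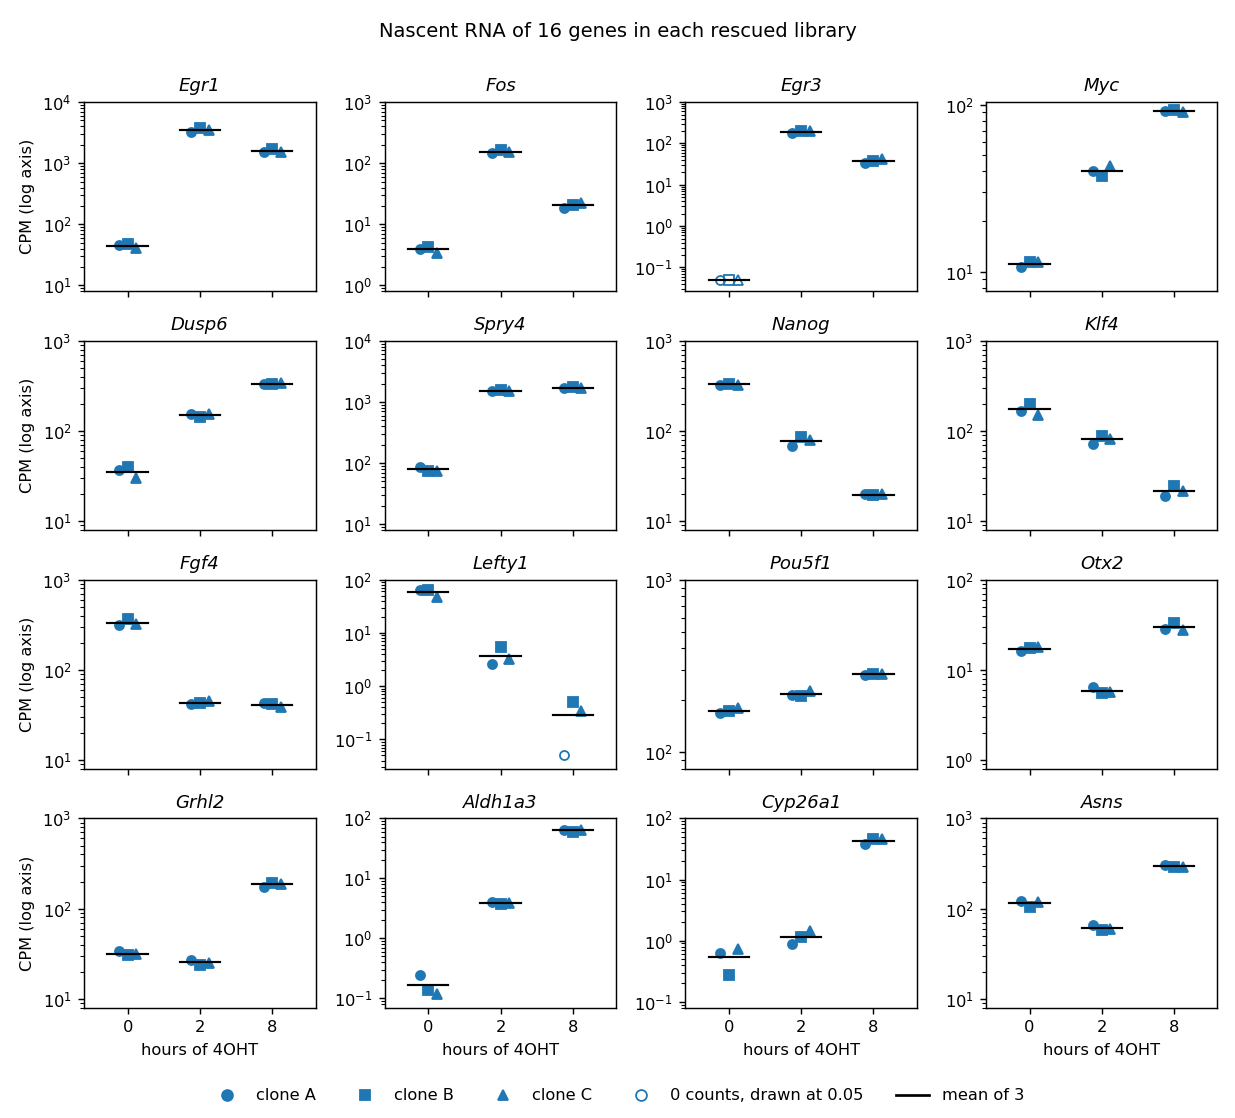
Levels of 16 genes in CPM (log axis) at 0, 2 and 8 h of 4OHT in rescued cells, a marker for each clone and a bar for the mean of the 3. A count of 0 is drawn as an open marker at 0.05 CPM. Egr1, Fos and Egr3 are lower at 8 h than at 2 h, Myc and Dusp6 higher, Nanog falls throughout, and Aldh1a3, Cyp26a1 and Grhl2 reach their highest level at 8 h.

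Naive pluripotency genes, whose factors hold the early epiblast state, did not move as a block. Of 20 tested members, 7 were higher and 11 lower (median -0.86), beside 30.7% and 31.2% of all genes. Nanog (GRCm38 chromosome 6, 122707489 to 122714633) stood at 327, 337 and 326 CPM at 0 h, 67.9, 86.95 and 79.1 CPM at 2 h and 19.9, 19.6 and 19.8 CPM at 8 h, and the clones of each time lay apart from those of the others. It fell by 4.06 ± 0.10 over 8 h. Klf4, a Krüppel-like factor gene downstream of STAT3, stood at 168, 201 and 153 CPM at 0 h and 18.9, 24.9 and 21.5 CPM at 8 h (log2 fold change -3.02 ± 0.12). Prdm14, a repressor of FGF receptor expression, stood at 24.4, 21.6 and 23.1 CPM at 0 h and 1.31, 2.02 and 2.09 CPM at 8 h (-3.74 ± 0.17). Tbx3, a T-box gene of the LIF network, stood at 104, 110 and 104 CPM at 0 h and 18.6, 19.4 and 20.6 CPM at 8 h, and Tcl1, a coactivator of AKT, fell by 2.47 ± 0.19. These genes fell with groups that did not overlap.

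Other naive genes stood near or above their start at 8 h, or recovered in part after 2 h. Klf5 stood at 180.5, 179.6 and 185 CPM at 0 h, 409, 439 and 413 CPM at 2 h and 473, 496 and 487 CPM at 8 h and rose by 1.42 ± 0.049. Pecam1, which encodes an adhesion molecule of naive cells, stood at 81.8, 76.2 and 76.5 CPM at 0 h and 193, 208 and 194 CPM at 8 h (1.34 ± 0.060). Tdh, a threonine-catabolising enzyme gene, stood at 103, 99.3 and 102 CPM at 0 h, 45.1, 45.5 and 43.4 CPM at 2 h and 158, 177 and 164 CPM at 8 h: it was lower at 2 h than at 0 h in every clone and higher than at 0 h in every clone at 8 h. Esrrb, an orphan nuclear receptor gene, stood at 568, 562 and 541 CPM at 0 h, 149.8, 178 and 161 CPM at 2 h and 217, 234 and 221 CPM at 8 h, and had a log2 fold change of 0.46 from 2 h to 8 h and of -1.32 from 0 h to 8 h. Gbx2 rose by 2.65 ± 0.18. Zfp42, which encodes REX1 and is a common marker of the naive state, overlapped between 0 h and 8 h although its small change of -0.16 ± 0.053 passed the test. Nr0b1 and Dppa5a gave log2 fold changes of 0.25 (adjusted p = 0.0524) and -0.41 (adjusted p = 0.176). Within the list 9 members were higher and 8 lower at 8 h than at 2 h.

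Fgf4, the ligand through which embryonic stem cells stimulate their own ERK, stood at 313, 369 and 319 CPM at 0 h, 41.9, 43.04 and 45.1 CPM at 2 h and 43.2, 42.1 and 38.6 CPM at 8 h. It fell by 3.0 ± 0.062 over 8 h, and its 2 h and 8 h groups overlapped. In the LIF pathway 8 of 12 tested members were lower and 3 higher (median -0.42), beside 31.2% lower and 30.7% higher among all genes. The share of higher members was thus near the background. None of the 5 genes for its receptor chains, kinases and STAT3 rose and 4 fell, Stat3 with a log2 fold change of -0.61. Socs3, the feedback inhibitor that STAT3 induces, stood at 119, 140.1 and 115 CPM at 0 h and 64.2, 61.4 and 63.9 CPM at 8 h and fell by 0.98 ± 0.068. The STAT3-responsive kinase gene Pim3 fell by 1.03 ± 0.066, whereas Pim1 rose by 0.54 ± 0.070.

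Core pluripotency genes, which naive and later epiblast cells share, were higher in 7 and lower in 4 of 14 tested members (median 0.14). Over all genes 30.7% were higher and 31.2% lower, so the share of lower members was near the background. With library size alone 5 were higher and 2 lower. Pou5f1, which encodes OCT4, stood at 169, 173 and 179.8 CPM at 0 h and 278, 286 and 282 CPM at 8 h and rose by 0.70 ± 0.082, and Sox2 rose by 0.31 ± 0.079. Utf1, a chromatin protein gene under OCT4 and SOX2, stood at 21.3, 31.2 and 21.1 CPM at 0 h and 72.1, 83.5 and 76.9 CPM at 8 h (1.66 ± 0.24). Lin28a, which encodes a repressor of let-7 maturation, fell by 0.65 ± 0.14. No core gene fell by 2-fold or more.

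Formative and primed epiblast genes, which switch on as cells leave the naive state, were higher in 11 and lower in 3 of 18 tested members (median 0.81). Over all genes 30.7% were higher and 31.2% lower. Grhl2, a pioneer factor of epithelial enhancers, stood at 33.7, 30.4 and 31.2 CPM at 0 h, 27.03, 23.6 and 25.3 CPM at 2 h and 176, 194 and 189.7 CPM at 8 h. Its clones at 2 h lay below those at 0 h, and the rise of 2.55 ± 0.067 was later. Otx2, the homeobox gene of the formative transition, stood at 16.02, 17.7 and 18.01 CPM at 0 h, 6.41, 5.505 and 5.66 CPM at 2 h and 28.6, 33.1 and 27.96 CPM at 8 h, a dip at 2 h followed by a net rise of 0.79 ± 0.10. Dnmt3b, a de novo DNA methyltransferase gene, dipped in the same way, with 73.1, 66.4 and 77.5 CPM at 0 h, 37.1, 34.3 and 38.4 CPM at 2 h and 173, 168 and 174 CPM at 8 h, and rose by 1.24 ± 0.078. Lef1, a Wnt effector gene, stood at 3.75, 5.29 and 4.56 CPM at 0 h and 36.1, 45.4 and 40.5 CPM at 8 h (3.15 ± 0.19), and Pou3f1, which encodes OCT6, rose by 3.7 ± 0.19. The neighbouring zinc-finger genes Zic2 and Zic5 fell: Zic2 stood at 19.15, 21.6 and 15.1 CPM at 0 h and 5.42, 5.57 and 3.597 CPM at 8 h and fell by 1.9 ± 0.15, and Zic5 fell by 1.53 ± 0.15. Dnmt3a, the other de novo methyltransferase gene, stood at 67.96, 63.1 and 59.6 CPM at 0 h, 304, 300.3 and 322 CPM at 2 h and 58.3, 51.7 and 58.9 CPM at 8 h. It had returned by 8 h, with a log2 fold change of -0.17 from 0 h (adjusted p = 0.0531).

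Marker genes of other cell types were looked at as whole lists. In such bulk libraries fewer cells of a type and less RNA per cell cannot be told apart. The 9 primitive endoderm markers summed to 32.7 to 33.6 CPM at 0 h and to 11.8 to 12.5 CPM at 8 h. Of 13 tested members, 4 were higher and 6 lower in the wider primitive endoderm list. Dab2, an endocytic adaptor gene of that lineage, stood at 18.02, 17.5 and 21.97 CPM at 0 h and 2.16, 3.29 and 2.32 CPM at 8 h and fell by 2.94 ± 0.18. The factor genes Gata4 and Gata6 had log2 fold changes of -0.83 ± 0.23 and -0.79 ± 0.29, and Sox17 overlapped between the groups. Sparc, a matrix glycoprotein gene in the same list, rose, with 64.2, 61.8 and 62.2 CPM at 0 h, 216, 247 and 252 CPM at 2 h and 139.5, 145 and 148 CPM at 8 h (1.2 ± 0.14). The genes of this lineage therefore did not share a direction.

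The 9 trophectoderm markers summed to 174 to 194 CPM at 0 h and 622 to 678 CPM at 8 h, and Tead4 made up most of the 8 h sum. Of 12 tested members, 9 were higher and 1 lower (median 1.37). Hand1 and Cdx2 stood low at 0 h and may have passed the count filter through their 8 h libraries alone, so this count is no support for a direction of the list. Tead4, the DNA-binding partner of YAP, stood at 58.2, 52.9 and 56.4 CPM at 0 h and 474, 506 and 494 CPM at 8 h (3.13 ± 0.063). Cdx2, the trophectoderm and posterior homeobox gene, stood at 1.001, 0.418 and 0.3602 CPM at 0 h and 6.404, 7.34 and 7.77 CPM at 8 h (3.54 ± 0.31). Hand1, a basic helix-loop-helix gene of trophoblast and mesoderm, stood at 0.125, 0.139 and 0.3602 CPM at 0 h and 7.45, 8.602 and 10.2 CPM at 8 h (5.24 ± 0.38). Gata2 fell by 2.02 ± 0.17 and Gata3 rose by 0.30 ± 0.10, so the GATA factors of the lineage differed in direction.

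Of the 19 gastrulation and mesoderm genes 9 had enough counts to be tested. A gene near 0 at 0 h could pass that filter through its 8 h libraries alone, so the direction of these 9 (8 higher and 1 lower) is no support for the list. T (Brachyury), the mesoderm T-box gene, had 2 counts over the 0 h group and 4.97, 6.198 and 5.45 CPM at 8 h, a 63.5-fold ratio (95% counting interval 17.3 to 529). Evx1, a homeobox gene of the primitive streak, rose by 4.62 ± 0.40, Cdx1 by 3.56 ± 0.38 and Sp5, a Wnt-responsive gene, by 3.41 ± 0.58. Wnt3, the ligand gene that starts the streak, fell by 0.98 ± 0.30. A single Hox gene of 31 was tested. The fibroblast and stromal markers summed to at most 10.4 CPM at 8 h (2.37 to 3.12 CPM at 0 h), and Lum, Dcn and Postn were at 0 in all 6 libraries. Twist1, the member of that list tested with the smallest p, had 0.2503, 0.696 and 0.721 CPM at 0 h, 15.1 to 19.5 CPM at 2 h and 3.53, 3.54 and 5.45 CPM at 8 h, a log2 fold change of 2.85 ± 0.33 from 0 h.

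The neural markers summed to 35.7 to 39.5 CPM at 0 h and 24.1 to 25.8 CPM at 8 h, with Neurog2, Neurod1 and Tubb3 at 0 throughout. Single neural genes rose steeply. Npy, a neuropeptide gene, rose by 6.13 ± 0.28, Pou4f2, a sensory-neuron POU gene, by 6.2 ± 0.23, and Nptxr, a pentraxin receptor gene, stood at 0.501, 0.696 and 0.4803 CPM at 0 h and 16.01, 16.6 and 17.3 CPM at 8 h (4.87 ± 0.26). Ncam1, an adhesion molecule gene, stood at 67.8, 65.2 and 73.7 CPM at 0 h and 31.96, 29.4 and 29.8 CPM at 8 h and fell by 1.17 ± 0.079, and Sox1, the early neural SOX gene, fell by 2.48 ± 0.46. In the list as a whole 4 of 13 members were higher and 5 lower, near the background.

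**Figure D3:**
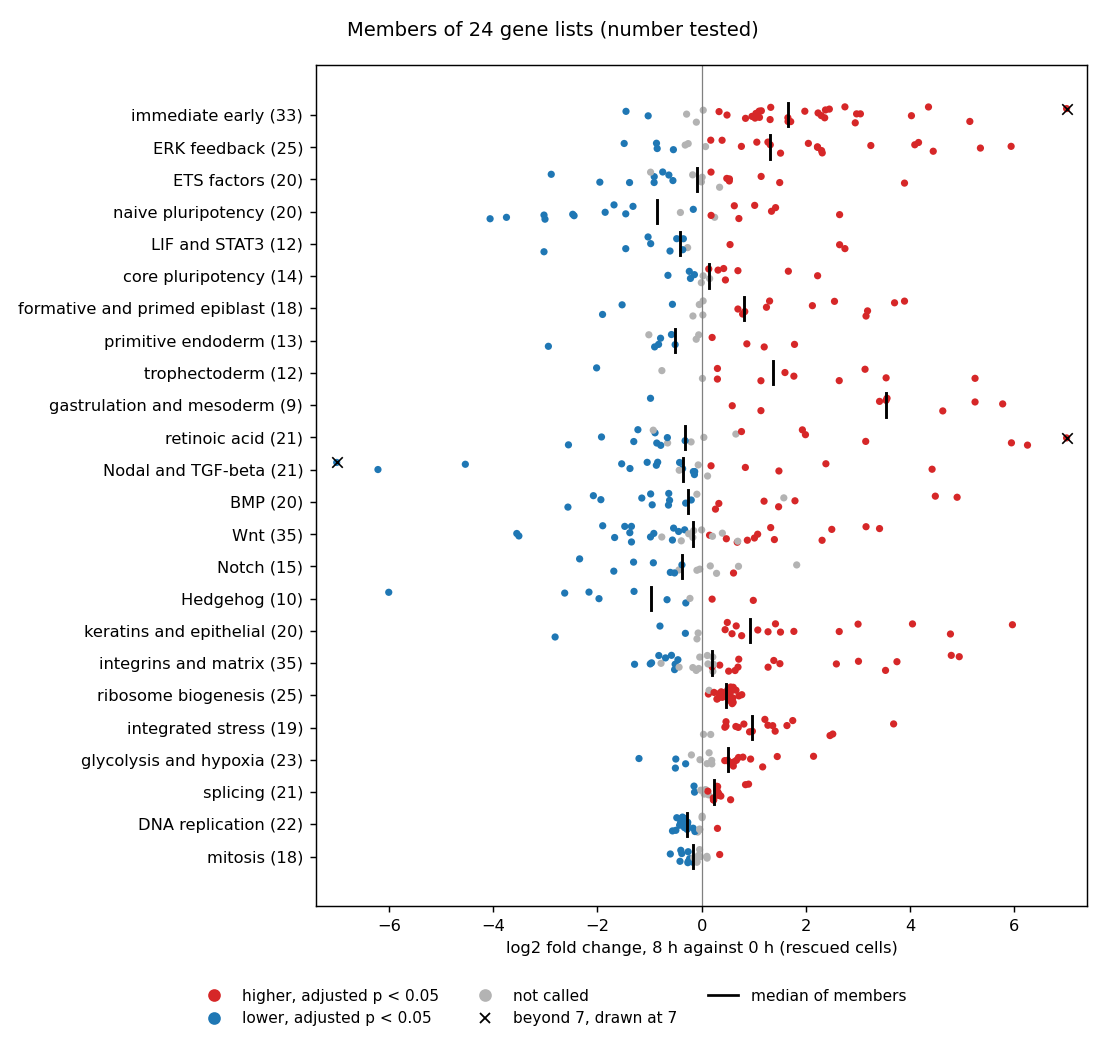
Log2 fold changes at 8 h against 0 h of the tested members of 24 gene lists, a point for each gene, red where called higher, blue where called lower and grey where not called, with a black bar at the median of the list. Values beyond 7 on either side are drawn at 7 with a cross. Immediate early, feedback, trophectoderm and integrated stress genes lie mostly above 0, DNA replication genes lie close below it, and naive genes are spread on both sides.

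Retinoic acid genes showed opposite directions within the pathway. Retinoic acid is made from retinal by ALDH1A enzymes, broken down by CYP26 enzymes and read by RAR and RXR receptors. Of 21 tested members, 7 were higher and 9 lower, shares near the background, and 5 rather than 9 were lower with a filter of 5 CPM. Some of the changes among those called were large. Aldh1a3 (GRCm38 chromosome 7, 66390890 to 66427517), a synthesis enzyme gene, stood at 0.2503, 0.139 and 0.1201 CPM at 0 h, 4.02, 3.75 and 3.88 CPM at 2 h and 65.02, 59.8 and 65.2 CPM at 8 h. It had 4 counts in all at 0 h and rose by 8.42 ± 0.23. In CPM, though not on the log2 scale, most of the rise came after 2 h. Cyp26a1, a degradation enzyme gene, stood at 0.626, 0.278 and 0.721 CPM at 0 h, 0.8799, 1.13 and 1.44 CPM at 2 h and 38.4, 45.3 and 46.9 CPM at 8 h and rose by 6.25 ± 0.30. Cyp26c1 rose as well, from 1.38, 2.65 and 2.402 CPM to 8.23, 7.84 and 9.52 CPM, and Cyp26b1 fell by 1.3 ± 0.45. A gene for making the ligand and a pair for breaking it down therefore rose in the same libraries.

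Among the receptors Rarg stood at 44.5, 39.8 and 41.7 CPM at 0 h and 169, 158 and 154 CPM at 8 h and rose by 1.93 ± 0.066, whereas Rara stood at 81.2, 75.2 and 75.2 CPM at 0 h and 43.6, 39.6 and 43.7 CPM at 8 h and fell by 0.86 ± 0.067, and Rarb and Rxra had log2 fold changes of -1.22 ± 0.32 and -0.78 ± 0.10. Rxrg had 2 counts at 0 h, a 72.7-fold ratio at 8 h (95% counting interval 19.9 to 605). Dhrs3, which turns retinal back to retinol, fell by 2.56 ± 0.42, and Stra8, a germ-cell target of retinoic acid, fell by 1.92 ± 0.41. Cyp26a1 is shown because its promoter held a direct repeat of the kind that retinoic acid receptors bind (RAR DR5, capitals), found in 0.0883% of all promoters of the table on either strand. The window lies directly before the RefSeq start at chr19:37697728-37697807, plus strand (GRCm38.p6).
Cyp26a1: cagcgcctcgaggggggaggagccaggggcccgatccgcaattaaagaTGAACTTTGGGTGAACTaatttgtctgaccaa
Whether the repeat was used was not measured.

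Some ligand genes of ERK's own upstream receptors changed sharply. Hbegf, a ligand gene of the EGF receptor, stood at 24.3, 22.6 and 19.7 CPM at 0 h, 420.4, 437 and 437 CPM at 2 h and 244, 259 and 237 CPM at 8 h and rose by 3.48 ± 0.072. Ereg had no counts at 0 h (at least 29-fold higher), and Areg had 2 at 0 h, an 18.5-fold ratio (95% counting interval 4.85 to 157). Of the 4 receptors of that family none rose and 3 fell, with log2 fold changes of -1.19 ± 0.094 for Erbb3, -0.68 ± 0.12 for Egfr and -1.04 ± 0.17 for Erbb4. Of the 7 tested ligand genes of the family 4 were higher and 1 lower, a count that is no support for a direction, since Ereg and Areg may have passed the filter through the libraries in which they are high. With a filter of 5 CPM, 2 rather than 4 members of the family were higher. In the FGF family 3 of 13 were higher and 5 lower, beside 30.7% and 31.2% of all genes, so these shares were near the background. Of its 7 tested ligand genes 1 was higher and 3 were lower. Fgfr1, a receptor gene for FGF4, stood at 189.6, 198 and 192 CPM at 0 h and 85.7, 89.2 and 98.3 CPM at 8 h and fell by 1.09 ± 0.057. Fgfr4 stood at 1.001, 0.975 and 1.32 CPM at 0 h and 17.6, 15.2 and 16.7 CPM at 8 h and rose by 3.89 ± 0.19. Fgf10 fell by 2.41 ± 0.19. Fgfr2 belongs to the 13 abundant genes that moved together between clones, and its change of -0.50 did not pass the test (adjusted p = 0.248).

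Nodal, a TGF-beta ligand of the early embryo, and its antagonists fell. Nodal stood at 68.96, 69.5 and 69.5 CPM at 0 h and 26.7, 27.4 and 25.99 CPM at 8 h and fell by 1.38 ± 0.092. Lefty1 (GRCm38 chromosome 1, 180935022 to 180938400), an inhibitor gene that Nodal signalling induces, stood at 63.8, 65.2 and 46.8 CPM at 0 h, 2.64, 5.38 and 3.22 CPM at 2 h and 0, 0.506 and 0.348 CPM at 8 h, with 7 counts in all at 8 h, and its log2 fold change was -7.96 ± 0.55. Lefty2 stood at 46.2, 39.4 and 35.8 CPM at 0 h and 1.44, 1.77 and 2.21 CPM at 8 h (-4.53 ± 0.38). Since the Lefty genes are near-identical in sequence, reads may have been shared out between them, and both values are uncertain. Smad3, a transducer, fell by 1.53 ± 0.089, from 52.6, 58.6 and 53.1 CPM to 20.4, 16.6 and 18.8 CPM. Several TGF-beta genes rose. Tgfbr2, the type II receptor gene, stood at 6.38, 6.26 and 3.602 CPM at 0 h, 41.2, 41.3 and 37.4 CPM at 2 h and 109.7, 113 and 124 CPM at 8 h and rose by 4.42 ± 0.13, Tgfb1 rose by 2.38 ± 0.12, and the target gene Skil rose by 0.84 ± 0.054. Tgfbr1 fell by 0.87 ± 0.065. Over the whole Nodal and TGF-beta list 5 of 21 were higher and 13 lower (median -0.36), beside 30.7% and 31.2% of all genes.

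In the BMP pathway Bmp4, a ligand gene, stood at 4.13, 3.48 and 4.56 CPM at 0 h, 18.2, 19.9 and 22.6 CPM at 2 h and 89.9, 94.9 and 90.2 CPM at 8 h and rose by 4.48 ± 0.12. Its target Id1, an inhibitor of basic helix-loop-helix factors, stood at 45.4, 50.1 and 45.03 CPM at 0 h and 163, 161 and 162 CPM at 8 h and rose by 1.79 ± 0.066. Id2, of the same family, stood at 48.3, 55.96 and 52.6 CPM at 0 h, 7.79, 8.63 and 7.21 CPM at 2 h and 13.3, 13.8 and 14.2 CPM at 8 h and fell by 1.93 ± 0.10. The homeobox genes Msx1 and Msx2 also parted: Msx1 rose by 4.9 ± 0.25, from 1.001, 0.696 and 0.4803 CPM to 20.2, 19.99 and 26.3 CPM, and Msx2 had a log2 fold change of -2.56. Of the 7 receptors and SMADs 1 was higher and 6 lower. The BMP target genes gave 3 higher and 3 lower members of 6.

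Among Wnt genes more ligands were higher than lower, and more receptors and antagonists lower than higher. Of 12 ligand genes 5 were higher and 2 lower (median 0.43), and of 11 receptor and antagonist genes 2 were higher and 8 lower (median -1.35). Over all genes 30.7% were higher and 31.2% lower. In the whole Wnt list 12 of 35 tested members were higher and 14 lower, shares near the background. Wnt7b stood at 20.1, 22.6 and 20.2 CPM at 0 h and 108, 125 and 123 CPM at 8 h (2.5 ± 0.086). Sfrp1, a secreted antagonist gene, stood at 62.2, 69.6 and 63.4 CPM at 0 h and 5.097, 6.07 and 5.802 CPM at 8 h and fell by 3.55 ± 0.12. Fzd5, a receptor gene, stood at 133, 148 and 126 CPM at 0 h and 37.2, 34.9 and 36.4 CPM at 8 h (-1.9 ± 0.074). Tcf7l1, a repressor that GSK3 inhibition counteracts in naive cells, stood at 382, 378 and 358 CPM at 0 h and 126, 141 and 137 CPM at 8 h and fell by 1.48 ± 0.051. The Wnt target Axin2 had a log2 fold change of -0.54.

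Hedgehog and Notch genes were lower more often than higher. In the Hedgehog list 2 of 10 were higher and 7 lower (median -0.98), beside 30.7% and 31.2% of all genes. Gli2, its transcription factor gene, stood at 191, 192 and 185 CPM at 0 h and 31.1, 27.8 and 32.6 CPM at 8 h and fell by 2.63 ± 0.064. Hhip, a membrane protein that binds Hedgehog ligands, stood at 32.8, 28.7 and 32.1 CPM at 0 h and 0.261, 0.632 and 0.696 CPM at 8 h (-6.0 ± 0.20), and the receptor gene Ptch1 stood at 208, 205 and 198 CPM at 0 h and 79.3, 84.4 and 85.9 CPM at 8 h (-1.3 ± 0.065). Of 15 Notch genes 1 was higher and 7 lower, beside the same background. Notch1 stood at 136, 136 and 134 CPM at 0 h and 44.5, 38.3 and 42.2 CPM at 8 h and fell by 1.69 ± 0.061, Notch3 fell by 1.31 ± 0.12 and the ligand gene Dll1 fell by 2.34 ± 0.22.

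Most tested genes of epithelia were higher at 8 h. Of 20 tested members, 15 were higher and 3 lower among the keratin and epithelial genes (median 0.92). With a filter of 5 CPM, 12 rather than 15 were higher. Sprr1a had no counts at 0 h and may have passed the filter through the libraries in which it is high. The count is therefore no support for a direction of the list. Pkp3, which encodes a desmosome plaque protein, stood at 4.38, 5.85 and 5.403 CPM at 0 h and 39.6, 41.6 and 44.2 CPM at 8 h (3.0 ± 0.12), and Cldn6, a tight-junction gene of the epiblast, stood at 20.6, 20.1 and 17.6 CPM at 0 h and 52.1, 50.6 and 52.7 CPM at 8 h (1.42 ± 0.10). Krt42 had a log2 fold change of -2.81. Of the 8 cadherins 4 were higher and none lower. Cdh13, which encodes a cadherin anchored by lipid, stood at 17.3, 16.1 and 16.4 CPM at 0 h, 12.6, 8.76 and 11.4 CPM at 2 h and 153, 151 and 155 CPM at 8 h and rose by 3.2 ± 0.082, all of it after 2 h. Cdh2 (N-cadherin), a gene of the primed epiblast, stood at 11.8, 13.9 and 12.8 CPM at 0 h and 118, 112 and 119 CPM at 8 h (3.18 ± 0.090). Cdh1 (E-cadherin) gave 0.11 (adjusted p = 0.0664). Cdh2 and Pkp3 thus rose in the same libraries.

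The genes of urokinase and its receptor, which activate plasminogen and with it the breakdown of matrix, rose steeply. Plaur, the receptor gene of urokinase, stood at 26.03, 19.2 and 22.8 CPM at 0 h, 742, 771 and 795 CPM at 2 h and 739, 690.1 and 669.7 CPM at 8 h (4.94 ± 0.080), and Plau, the urokinase gene, stood at 0.626, 0.418 and 0.1201 CPM at 0 h and 10.7, 11.4 and 11.02 CPM at 8 h (4.79 ± 0.30). Of 13 integrin genes 7 were higher and 1 lower: Itgb1, the common beta chain, stood at 138, 137 and 144 CPM at 0 h and 388, 408 and 389.6 CPM at 8 h and rose by 1.5 ± 0.058. Matrix genes were mixed, with 5 of 14 higher and 7 lower. Nrp2, a coreceptor gene of semaphorins and VEGF, stood at 57.8, 59.03 and 54.99 CPM at 0 h, 572, 592 and 587 CPM at 2 h and 922, 984 and 997 CPM at 8 h (4.08 ± 0.059). Epha2 and Epha4, genes of related ephrin receptors, went apart, Epha2 from 320.1, 259 and 291 CPM to 717, 720.4 and 673 CPM and Epha4 from 396, 373 and 394 CPM to 178, 174 and 189.9 CPM. Fhl2, a LIM-domain cofactor gene under SRF, stood at 6.38, 6.96 and 6.24 CPM at 0 h and 90.1, 97.7 and 105 CPM at 8 h (3.9 ± 0.10), although only 4 of the 18 SRF and cytoskeletal genes were higher and 6 were lower.

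Genes of the integrated stress response were mostly higher. Of 19 tested members, 17 were higher and 0 lower (median 0.97), beside 30.7% and 31.2% of all genes. The list holds targets of the factor ATF4, many of which make or import amino acids. Psat1, of serine synthesis, stood at 59.7, 53.5 and 59.6 CPM at 0 h and 153, 158 and 149.6 CPM at 8 h (1.41 ± 0.071), and Mthfd2, of mitochondrial folate metabolism, stood at 31.5, 28.7 and 32.3 CPM at 0 h and 100.4, 96.8 and 90.3 CPM at 8 h (1.64 ± 0.092). Atf4 itself stood at 119, 133 and 121 CPM at 0 h and 170.2, 175 and 171 CPM at 8 h. The promoters of 18 of the 19 tested genes were matched, and 5 of their 21 windows (23.8%) held the ATF4 composite site TGATGNAA on either strand, against 3.45% of all promoters. Asns, Chac1 and Slc7a11 are shown because the capitals, which mark this site on either strand, lie within promoters of genes that rose together. They were chosen after their values were seen. The GRCm38.p6 coordinates are Asns chr6:7693210-7693289, minus strand; Chac1 chr2:119351019-119351098, plus strand; Slc7a11 chr3:50443630-50443709, minus strand.
Asns: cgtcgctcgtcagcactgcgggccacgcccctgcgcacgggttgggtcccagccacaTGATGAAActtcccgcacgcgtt
Chac1: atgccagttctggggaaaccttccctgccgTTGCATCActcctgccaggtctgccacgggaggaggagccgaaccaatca
Slc7a11: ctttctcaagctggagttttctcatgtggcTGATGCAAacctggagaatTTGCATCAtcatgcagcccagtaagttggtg
Asns (asparagine synthetase) stood at 120.4, 105 and 119 CPM at 0 h, 66.1, 58.3 and 59.7 CPM at 2 h and 302, 292 and 292 CPM at 8 h, below its start at 2 h and 1.36 ± 0.13 above it at 8 h. Chac1, a glutathione-degrading enzyme gene, stood at 1.25, 1.53 and 0.961 CPM at 0 h and 7.58, 7.08 and 6.498 CPM at 8 h (2.52 ± 0.41). Slc7a11, the cystine transporter gene, stood at 1.502, 1.25 and 1.44 CPM at 0 h and 5.16, 4.93 and 3.94 CPM at 8 h (1.75 ± 0.27). In each of the 3 genes the 8 h libraries lay above all 0 h libraries. Over the list 15 members were higher and 3 lower at 8 h than at 2 h.

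Ribosome biogenesis genes, which encode nucleolar proteins, were higher in 24 of 25 and lower in none, by a small amount (median 0.46). With library size alone 17 rather than 24 were higher. Over all genes 30.7% were higher and 31.2% lower. Gnl3 (nucleostemin) stood at 226, 202 and 217 CPM at 0 h and 387, 366 and 347 CPM at 8 h (0.77 ± 0.051), and Fbl (fibrillarin) rose by 0.71 ± 0.057. Glycolysis and hypoxia genes gave 13 higher and 4 lower of 23 (median 0.50). The hexokinase genes parted: Hk2, the inducible form, stood at 506, 473 and 443 CPM at 0 h and 917, 893 and 916 CPM at 8 h and rose by 0.94 ± 0.051, and Hk1, the constitutive form, stood at 41.5, 43.99 and 38.8 CPM at 0 h and 19.8, 16.4 and 16.8 CPM at 8 h and fell by 1.2 ± 0.10. Cholesterol synthesis genes were higher in 14 and lower in 1 of 23 (9 higher with library size alone), with Msmo1, a sterol oxidase gene, at 49.4, 49.4 and 49.8 CPM at 0 h and 141, 137 and 141 CPM at 8 h (1.5 ± 0.064). Within the list 2 members were higher and 13 lower at 8 h than at 2 h.

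Cell cycle genes moved in both directions, and no member of the replication and mitosis lists changed by 2-fold or more. DNA replication genes were higher in 1 and lower in 16 of 22 (median -0.28), beside 30.7% and 31.2% of all genes. Among the lower were Gins1, of the replicative helicase, at -0.56 ± 0.078, and Rrm2, of nucleotide synthesis, at -0.49 ± 0.058. Mitotic genes were higher in 1 and lower in 9 of 18, beside the same background. Nusap1, a spindle protein gene, stood at 74.6, 66.5 and 73.5 CPM at 0 h, 101, 108 and 108 CPM at 2 h and 47.6, 45.8 and 48.04 CPM at 8 h. In the comparison of 8 h with 2 h 17 of the 18 mitotic genes were lower and none higher, beside 30.1% and 30.7% of all genes. Of 21 G1 regulator genes 5 were higher and 9 lower at 8 h against 0 h, beside 30.7% and 31.2% of all genes. Among the higher, E2f2 and Ccne1 (cyclin E1) rose by 1.35 ± 0.082 and 0.91 ± 0.055. Cdkn1b, which encodes the inhibitor p27, stood at 74.2, 82.1 and 73.01 CPM at 0 h and 37.1, 31.9 and 29.4 CPM at 8 h and fell by 1.2 ± 0.075. Mycn and Mycl fell, with log2 fold changes of -0.60 ± 0.12 and -2.74 ± 0.26, while Myc rose, so that the 3 MYC genes differed in direction. No change of cell cycle state was measured here.

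Most genes of xenobiotic metabolism were lower at 8 h. Of the 7 tested, 1 was higher and 6 lower (median -1.25), beside 30.7% and 31.2% of all genes. Cyp1b1, a cytochrome P450 gene under the aryl hydrocarbon receptor, stood at 18.5, 21.2 and 19.09 CPM at 0 h, 31.2, 37.8 and 34.96 CPM at 2 h and 0.131, 0.3795 and 0.464 CPM at 8 h, so that it was above its start at 2 h in every clone and -6.04 ± 0.25 at 8 h. Cyp1a1 stood at 5.13, 4.32 and 5.76 CPM at 0 h and had 3 counts over the 8 h group, 54.2-fold lower (95% counting interval 18.1 to 266). The receptor gene Ahr stood at 61.5, 65.2 and 54.9 CPM at 0 h and 23.1, 22.9 and 17.6 CPM at 8 h and fell by 1.5 ± 0.092. Tiparp, a target of that receptor that also restrains it, stood at 81.98, 82.1 and 80.9 CPM at 0 h and 214, 222 and 224 CPM at 8 h and rose by 1.43 ± 0.056. Changes of these genes with 4OHT as a chemical cannot be told apart from changes with ERK.

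Beyond the lists, the 12 largest rises among genes of at least 5 CPM included Grm6, a metabotropic glutamate receptor gene, which stood at 0.376, 0 and 0.3602 CPM at 0 h, 0.503, 0.2502 and 0.555 CPM at 2 h and 46.1, 41.9 and 40.7 CPM at 8 h. Ccl20, which encodes a chemokine, was at 0 counts before activation and stood at 2.39, 1.25 and 1.55 CPM at 2 h and 27.8, 26.1 and 30.5 CPM at 8 h (at least 220-fold). In CPM both rose almost wholly after 2 h. Pla2g7, the gene of a secreted phospholipase, had instead reached its level by 2 h, with 4.88, 5.99 and 5.88 CPM at 0 h, 309, 284 and 300.2 CPM at 2 h and 322, 311 and 322 CPM at 8 h (5.83 ± 0.081). Gsg1, a germ-cell gene, rose by 5.86 ± 0.34. Among the 12 largest falls Aqp3, a water and glycerol channel gene, stood at 32.5, 33.5 and 34.1 CPM at 0 h, 15.5, 19.6 and 17.2 CPM at 2 h and 1.24, 1.77 and 1.62 CPM at 8 h (-4.48 ± 0.15). Mcf2, a guanine nucleotide exchange factor gene, had a log2 fold change of -4.98 ± 0.17, and Sgo2b, Sh2d4a and Rab3il1 had values of -4.42 ± 0.23, -4.16 ± 0.27 and -4.08 ± 0.25. Prmt8, an arginine methyltransferase gene, stood at 37.5, 34.2 and 36.02 CPM at 0 h and 0.458, 0.3795 and 0.464 CPM at 8 h.

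Adjacent genes that both changed mostly changed the same way. Among 603 pairs of adjacent, non-overlapping genes that both changed at least 2-fold, 458 (76.0%) moved in the same direction, 206 of them upwards. Among the 313 pairs within 50000 bases it was 264 (84.3%). Over all 12608 adjacent pairs of tested genes, whether called or not, 58.6% had the same sign. That share includes genes with little change, so it is no like-for-like baseline for the pairs changed at least 2-fold. The following runs were chosen after their values were seen. On chromosome 11, from 114765388 to 114904654, Kif19a, Btbd17, Gpr142, Gprc5c and Cd300a were neighbours among the tested genes and all rose. Kif19a, a kinesin gene, stood at 0.626, 0.418 and 0.6004 CPM at 0 h and 23.3, 20.4 and 26.7 CPM at 8 h (5.37 ± 0.24), with Btbd17 at 6.02 ± 0.23 and Gpr142, a receptor gene for an amino acid, at 6.95 ± 0.25. On chromosome 3, from 90537254 to 92485895, S100a16, S100a3, S100a6, Lor and Sprr1a rose. S100a6, which encodes a calcium-binding protein, stood at 4.88, 4.32 and 3.72 CPM at 0 h and 169, 173 and 174 CPM at 8 h (5.32 ± 0.19).

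Runs of falling genes were found too. On chromosome 1, Tmem63a (-2.7 ± 0.19) and Ephx1 (-2.52 ± 0.22) fell beside Lefty1 and Lefty2. On chromosome 15, from 59648350 to 61990374, Trib1, Fam84b (1.09 ± 0.21) and Myc rose, and from 101411043 to 102032027 the keratin genes Krt7, Krt8 and Krt18, of simple epithelia, rose by 1.08 ± 0.22, 1.77 ± 0.27 and 2.64 ± 0.31. Whether the counting used strand or introns is not given in the sources used here, so reads that run on from a neighbour cannot be told apart from a gene's own. Genes that fell at least 2-fold were longer, with a median length of 43.6 kb against 26 kb for all tested genes and 23.6 kb for those that rose, and 28.7% of them exceeded 100 kb against 15.8% of all. Whether length had a part in these changes was not tested.

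In their 250-base promoters the 2-fold higher genes held the AP-1 site TGANTCA in 109 of 1120 windows (9.73%, 838 of 1164 genes matched), against 5.84% of the windows of 2-fold lower genes and 4.7% of those of tested genes. The ETS site CCGGAAGT was in 2.32% of the windows of higher and 0.71% of lower genes, against 5.4% of tested genes. The cAMP response element TGACGTCA was in 3 of the 22 windows of feedback genes (13.6%), Dusp1 and Dusp8 among them, against 2.44% of the windows of tested genes. Over all promoters of the table the shares of these motifs were 6.75%, 2.88% and 1.55%. The CArG box, the ATF4 composite site and RAR DR5 were set against all promoters above. In the windows of tested genes their shares were 1.16%, 2.07% and 0.0579%. Both strands were searched, overlaps between motifs were allowed, and these shares describe letters and not binding.

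From 2 h to 8 h 8593 genes changed (60.8%). Of these 4335 rose (30.7% of those tested) and 4258 fell (30.1%), with 4002 and 2523 under library size alone, so the share of higher calls moved from 50.4% to 61.3%. At least 2-fold higher were 1111 genes (7.86%) and lower 921 (6.52%). The largest falls were of genes that had risen by 2 h and were back near or below their start. Nptx1, a secreted pentraxin gene, stood at 1.75, 0.696 and 1.56 CPM at 0 h, 52.5, 61.6 and 63.03 CPM at 2 h and 0.327, 0.632 and 0.232 CPM at 8 h (-7.24 ± 0.29 from 2 h to 8 h). Col26a1, a collagen gene, stood at 0.876, 1.11 and 0.721 CPM at 0 h, 65.4, 67.4 and 65.5 CPM at 2 h and 1.24, 1.26 and 1.16 CPM at 8 h (-5.74 ± 0.14), and Fam46c at 7.38, 6.54 and 7.08 CPM at 0 h, 103, 107 and 121 CPM at 2 h and 3.92, 4.55 and 3.37 CPM at 8 h (-4.81 ± 0.12). Sox8, a SOX-family gene, had a log2 fold change of -5.47 ± 0.19 and Scrt1, a neural zinc-finger gene, one of -5.09 ± 0.30. Each of the first 3 showed 2 h libraries far above those of both other times.

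The largest rises from 2 h to 8 h included, beside Grm6, Cyp26a1, Aldh1a3 and Ccl20, the genes Kdr, Trib2 and Ankrd33b, whose 2 h libraries all lay below their 0 h libraries. Kdr, the gene of the VEGF receptor 2, stood at 1.38, 1.39 and 1.08 CPM at 0 h, 0.754, 0.751 and 0.888 CPM at 2 h and 25.2, 22.3 and 24.7 CPM at 8 h (4.89 ± 0.20). Trib2, a pseudokinase gene, stood at 6.38, 7.796 and 5.28 CPM at 0 h, 1.63, 3.003 and 1.11 CPM at 2 h and 33.3, 29.1 and 34.7 CPM at 8 h (4.1 ± 0.20), so it dipped at 2 h before it rose, unlike its relative Trib1. Ankrd33b stood at 7.88, 10.02 and 7.92 CPM at 0 h, 4.27, 2.502 and 3.55 CPM at 2 h and 53.5, 56.04 and 60.7 CPM at 8 h (4.03 ± 0.14), and Itga1, the integrin alpha 1 gene, rose by 4.15 ± 0.24. Tet1, which encodes an enzyme that oxidises methylated cytosine, stood at 769, 755 and 802 CPM at 0 h, 159.9, 179 and 169 CPM at 2 h and 496, 518 and 501 CPM at 8 h: it partly came back after 2 h, with log2 fold changes of 1.58 from 2 h and -0.62 from 0 h.

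In knockout cells, which were grown without doxycycline, most of these genes changed the same way. Of the 1164 genes at least 2-fold higher in rescued cells, 1127 (96.8%) had the same sign and 982 (84.4%) were called higher in the knockout, where 28% of all genes were called higher. Of the 1345 lower genes 1321 (98.2%) had the same sign and 1178 (87.6%) were called lower, where 29.7% of all genes were. The median log2 fold change of the higher set was 1.73 in rescued and 1.26 in knockout cells, and that of the lower set -1.53 and -1.31. The sets were chosen on the rescued libraries, so a smaller value in the other libraries is partly fixed by the choice. The knockout and rescued libraries were separate.

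The difference of the 8 h responses (knockout minus rescued) passed the test in 2391 genes (16.9%), with 1121 (7.93%) above 0 and 1270 (8.99%) below. With library size alone 108 were above and 1723 below, and the median over all genes shifted by -0.3, so that the balance of directions rests on the scaling. Without the 3 knockout libraries in which abundant genes took more counts, a fit chosen after seeing the data 1131 were above and 1298 below. That fit leaves knockout 8 h clone A alone in its group and assumes that it varies like the libraries of the other groups. In the immediate early list 2 of 33 members differed upwards and 13 downwards (median -0.39, against -0.01 over all genes), beside 7.93% and 8.99% of all genes. Egr1 rose more in knockout cells, by 0.77 ± 0.16, and Fosl2 less, with a difference of -2.33 ± 0.21. With library size alone the difference for Egr1 no longer passed (0.50 ± 0.22, edgeR adjusted p = 0.12). Spry4 had a log2 fold change of 4.37 in the knockout against 4.44 in rescued cells (difference -0.07, adjusted p = 0.66).

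Several of the genes described above were among those whose responses differed. Cyp26a1 rose by 2.92 on the log2 scale in knockout cells against 6.25 in rescued cells, a difference of -3.33 ± 0.87 (edgeR adjusted p = 0.011). Ociad2, which encodes a mitochondrial and endosomal protein, stood at 3.25, 4.18 and 4.08 CPM at 0 h and 77.9, 72.2 and 77.4 CPM at 8 h in rescued cells and rose by 4.3, against 1.61 in the knockout. The difference for Cdh13 was -2.29 ± 0.14, and that for the sterol gene Msmo1 was -0.87 ± 0.093. On the other side Aqp3 had -4.48 in rescued and -1.71 in knockout cells, and Lefty2 had -4.53 and -0.96. Phlda2, an imprinted growth-restraining gene, rose more in the knockout, 4.03 against 1.74. By that test 458 of the 2-fold higher genes had a smaller response in the knockout and 29 a larger one, and of the 2-fold lower genes 254 and 20. These sets were chosen on rescued libraries that also enter the difference, so an excess of smaller knockout responses is partly fixed by the choice.

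**Figure D4:**
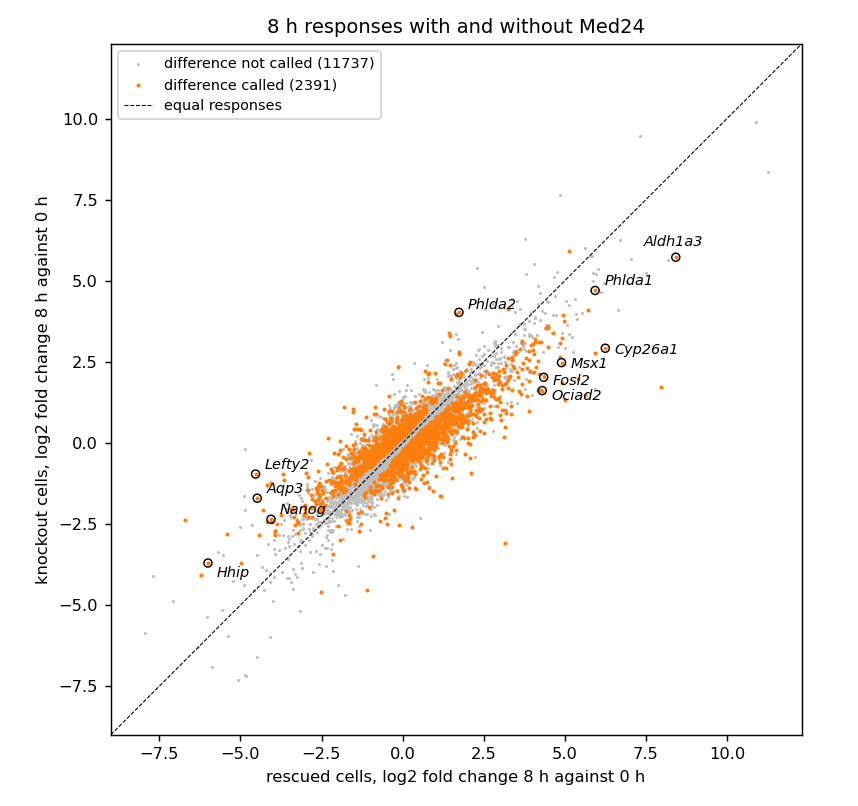
Log2 fold change at 8 h against 0 h in rescued cells (x axis) and in knockout cells (y axis), a point for each tested gene. Orange marks the 2391 genes whose responses differed between the cell states, grey the 11737 others, and the dashed line equal responses; most points lie near the line, and orange points at the far right lie mostly below it.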

How the data were processed

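Nascent RNA was measured in 18 libraries, 3 clones in each of 6 groups. The authors deposited raw counts of reads by gene symbol. STAR, featureCounts, DESeq and the mm10 build come from the submitters' processing notes. Tool versions and the strand and intron settings were not given in the sources used here.

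Genes passing filterByExpr (14128 of 25897) were fitted with edgeR 4.0.16 (R 4.3.3) in 1 robust quasi-likelihood model over all 18 libraries after TMM scaling, with a mean per group and Benjamini-Hochberg adjustment over all genes at 0.05. CPM are edgeR's library-scaled counts. On simulated counts for the main contrast, 87% of 100 genes changed 2-fold and 99% of 100 changed 4-fold were recovered, and 0.0149% of 13460 unchanged genes were called. The simulation gave every gene the same dispersion and changed far fewer genes than were called in the data. These shares therefore check the code and do not give the recovery or false calls of the real contrast. No pair of replicates agreed within sampling noise. Positions are from GENCODE M21 (GRCm38) and promoters from RefSeq (GRCm38.p6). Alternatives were RLE scaling, library size alone, other filters, DESeq2 1.42.0, a clone block, each contrast's libraries alone and leaving out each library.

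Members and lists were chosen with earlier results of these data known. Genes named were the 12 highest and 12 lowest of the main contrast (at least 5 CPM, no overlap, no predicted models), 8 and 8 of 8 h against 2 h, 5 and 5 of the difference of responses, up to 4 members per list by smallest p, and any member of the immediate early, feedback, ETS, naive and core pluripotency, epiblast, primitive endoderm, trophectoderm, retinoic acid, FGF and Nodal lists. Atf4, Axin2, Cdh1, Cdx1, Egfr, Erbb4, Msx2, Pim1, Socs3, Sox1, Sp5, Stat3 and Wnt3 lie outside this rule and were chosen after their values were seen. Some genes that the naming rule picked are not reported here.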

Additional observations from a re-analysis of the deposited data

Results flagged for a closer look

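The 13 genes given here were taken from the largest changes of the main contrast and of the difference of responses. Only genes whose 8 h response differed between knockout and rescued cells in the edgeR fit were kept. That they pass this test is therefore fixed by the choice. Rescued libraries entered both the choice and the difference, so differences opposite to the rescued change are also partly fixed. Differences are log2, knockout minus rescued, with standard errors and n = 3 libraries per group. Below 0 were Cyp26a1, a retinoic acid-degrading enzyme gene (-3.33 ± 0.87, adjusted p = 0.011), Aldh1a3, a retinoic acid-making enzyme gene (-2.7 ± 0.96, adjusted p = 0.0448), and Ociad2 (-2.69 ± 0.28, adjusted p = 3.87e-10). Also below 0 were the homeobox gene Msx1 (-2.42 ± 0.49, adjusted p = 0.000347), the AP-1 gene Fosl2 (-2.33 ± 0.21, adjusted p = 1.47e-09) and Phlda1 (-1.24 ± 0.22, adjusted p = 5.82e-05). These 6 genes rose in rescued cells. The difference for Aldh1a3 was -1.25 ± 1.9 (adjusted p = 0.747) without knockout 0 h clone B, and its adjusted p lay above 0.05 also with the clone block (0.0579), without a filter on low counts (0.0538), with only the libraries of the comparison (0.0517) and without any 1 of 6 other libraries.

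Above 0 were genes that fell in rescued cells, with the exception of Phlda2, which rose. They were Mcf2 (1.28 ± 0.31, adjusted p = 0.00221), Sgo2b (1.6 ± 0.36, adjusted p = 0.000921), Nanog (1.71 ± 0.14, adjusted p = 3.93e-08), Phlda2 (2.29 ± 0.57, adjusted p = 0.00996), Hhip (2.3 ± 0.53, adjusted p = 0.00136), Aqp3 (2.78 ± 0.23, adjusted p = 5.42e-13) and Lefty2 (3.57 ± 0.49, adjusted p = 0.000267). Without rescued 8 h clone A the adjusted p was 0.0525 for Mcf2 (0.96 ± 0.34). The other 11 genes passed under every alternative fit of this difference in which they were tested. Doxycycline was present in all rescued and in no knockout libraries, so it cannot be told apart from Med24.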

How the results depend on the processing

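Of the alternative fits, those without the 13 abundant genes and without the 3 knockout libraries rich in them were chosen after seeing the data. Library size alone was the setting that moved a count of calls over all genes by more than 1.5 times: 2679 genes were then higher at 8 h than at 0 h, 2523 lower at 8 h than at 2 h, and 108 above 0 in the difference of responses. The cause was not tested. Under the other settings the counts of higher and lower genes at 8 h against 0 h lay between 3747 and 4509 and between 3992 and 4502. No gene called at 8 h against 0 h both in the main fit and under another setting changed direction. Genes that lost their call were not checked for direction. Leaving out each library in turn gave 3932 to 4087 higher and 4024 to 4274 lower genes. For 8 h against 2 h it gave 3867 to 4106 and 3934 to 4085, and for the difference of responses 796 to 1225 and 939 to 1322. Clones of the same letter deviated from their group means with correlations of 0.073 (A), -0.0031 (B) and -0.0061 (C) between rescued 0 h and 8 h. The titles give the same clone letters in every group, and these correlations do not show whether a letter marks 1 clone throughout. With the clone letter as a replicate block, 4295 genes were higher and 4361 lower. No count over all genes moved by over 1.5 times under that block, but 1 rather than 2 splicing genes and 0 rather than 1 heat shock genes were lower. Of 104 counts of higher or lower members over gene lists, 14 moved by over 1.5 times with library size alone and 11 under another setting, 6 of them by more than 1 gene. With a filter of 5 CPM these were the higher EGF receptor family genes (4 to 2), and the lower retinoic acid (9 to 5), chemokine (5 to 3) and germ cell genes (5 to 3). Without a filter the lower Hox genes went from 1 to 3, and without rescued 8 h clone A the lower splicing genes from 2 to 0. Leaving out rescued 0 h clone A or B or rescued 8 h clone A or B left no mitotic gene higher, and leaving out either clone B left 2 Notch genes higher.

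No spike-in is named, and a change is therefore one relative to the rest of the library. Reads of overlapping or antisense genes cannot be told apart, nor can reads of the Med24 cDNA and its locus. A count of 0 in a library allows a level of up to 0.196 to 0.418 CPM, and levels near that rest on few counts. With 3 clones per group, p-values measure the spread between clones labelled alike.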

Other observations

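Some further gene families, also taken from lists, changed within the same 6 libraries. All 15 tested Krüppel-like factor genes changed, 7 up and 8 down, where 61.9% of all tested genes changed. Klf8 stood at 50.9, 61.8 and 56.6 CPM at 0 h and 11.9, 15.3 and 13 CPM at 8 h and fell by 2.1 ± 0.10, Klf11 fell by 1.91 ± 0.11, and Klf6, an injury-responsive member, rose by 1.04 ± 0.054. Genes of the interferon response were higher in 2 and lower in 6 of 9, beside 30.7% and 31.2% of all genes. Stat2, a transducer of interferon signals, fell by 1.15 ± 0.11, whereas Ddx58, which encodes the RNA sensor RIG-I, stood at 14.6, 15.2 and 11.7 CPM at 0 h and 36.8, 40.1 and 43.98 CPM at 8 h and rose by 1.54 ± 0.10. The family so held members that moved in opposite directions beyond the spread of the clones.

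Semaphorin and plexin genes, which guide axons and vessels, were higher in 10 and lower in 4 of 18 (median 0.55), and netrin, slit and receptor genes were higher in 2 and lower in 6 of 12 (median -0.76), beside 30.7% and 31.2% of all genes. Kitl, the ligand gene of the KIT receptor that supports germ cells, stood at 29.9, 24.8 and 30.9 CPM at 0 h and 4.31, 4.68 and 5.11 CPM at 8 h and fell by 2.62 ± 0.13, and Kit itself fell by 0.67 ± 0.062. Piwil2, a germ-line small-RNA gene, rose by 1.31 ± 0.15. Ezh2, the histone methyltransferase gene of Polycomb, stood at 232, 234 and 248 CPM at 0 h and 150.4, 156 and 154 CPM at 8 h and fell by 0.63 ± 0.053, while of 19 Polycomb genes 9 (with library size alone 3) rose and 4 fell. Cdk19, of the Mediator kinase module, stood at 131, 142 and 147 CPM at 0 h and 60.2, 67.4 and 73.3 CPM at 8 h and fell by 1.07 ± 0.066.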
